A study of Mus musculus with 12 samples.

Results

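Adiponectin (Adipoq), adipsin (Cfd), fatty acid-binding protein 4 (Fabp4), Cidec, perilipin 1 (Plin1) and resistin (Retn) are genes used to mark fat cells, and they were followed here on arrays of mouse intestine as markers of mesenteric fat. The members were the probes whose platform gene symbol or alias is 1 of these 6 genes. Of the 6 genes, 5 had a probe in the annotation, with 6 probes in all among the 45281 on the array. Cfd was not analysed here. Only 2 genes, Adipoq and Cidec, were bright enough to be tested, out of 12132 named genes tested. The remaining 3 genes, Fabp4, Plin1 and Retn, lay at the background level with all 4 of their probes on all 12 arrays. Among the 6 genes the label of a fat cell group therefore rests on Adipoq alone, because Cidec had another pattern and most defining markers gave no signal.

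The arrays came from 4 groups of 3. In the small-intestinal mutant group, Apc+/+ Cftrfl/fl-Villin-Cre mice lack the anion channel gene Cftr in gut epithelium, and the sample was mid-duodenum with its villi sheared off, which leaves crypts, stroma, muscle and whatever else adheres to the wall. The small-intestinal wild-type group was the same preparation from mice whose genotype is given as Apc+/+ Cftr+/+-Villin-Cre. The colon mutant and colon wild-type groups were epithelium separated from the distal colon of mice of the same genotypes, although 1 protocol field speaks of whole colon. All mice were C57BL/6 and 3 months old, given as 12 weeks in the growth protocol, and all carried intact Apc by the genotype field. The design text words the mutants as deficient in Apc as well. It also speaks of RNA sequencing, while the files hold BeadChip values. The growth protocol names no Cre for the Cftr+/+ mice, so whether the controls carry Cre is not settled. Villin-Cre is active in intestinal epithelium, so fat cells of the mutants keep an intact Cftr gene. The source names call both tissues epithelium. The design text describes 3 mice of each genotype and replicates of each sample, and nothing ties an array to a named mouse. P-values thus measure the spread between arrays, which may be technical. The brighter of the 2 Cftr probes read 8.12, 8.11 and 8.3 (log2) on small-intestinal mutant arrays, against 8.28, 8.2 and 8.2 on small-intestinal wild-type arrays, and 7.94, 8.21 and 8.19 on colon mutant arrays, against 8.13, 7.95 and 7.97 on colon wild-type arrays (limma adjusted p = 0.998 and 0.956). Where that probe lies relative to the deleted part is unknown here, so it does not check the genotype labels.

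White fat cells store triglyceride in 1 large lipid droplet. Plin1 coats that droplet and controls the access of lipases, Cidec promotes the fusion and growth of droplets, and Fabp4 carries fatty acids in the cytosol. Adiponectin, adipsin and resistin are secreted, adiponectin as an insulin-sensitizing hormone, adipsin as complement factor D and resistin, in mice, as a hormone that opposes insulin action. Most of these genes are switched on by the nuclear receptor PPAR gamma with C/EBP factors during fat cell differentiation. In the gut, mesenteric fat lies along the attachment of the mesentery, and Cidec is also known outside fat, in tissues that handle much lipid.

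The genes have the following places on the mouse genome build GRCm38.p6. Adipoq lies at chr16:23146536-23157968 and Cidec at chr6:113424634-113435760. Fabp4 lies at chr3:10204342-10208616, Plin1 at chr7:79721164-79732904, Retn at chr8:3655770-3659818 and Cfd at chr10:79890853-79892655. Probe positions within the transcripts are not given in the sources used here. For the 2 tested members and for Plin4, a fat cell gene called lower in small-intestinal mutant, the 250 bases before the RefSeq transcript start are shown because the results set these 3 genes against each other. They are at chr16:23146286-23146535 on the plus strand for Adipoq, chr6:113435761-113436010 on the minus strand for the outer start of Cidec, and chr17:56109783-56110032 on the minus strand for Plin4. Each is written 5′ to 3′ in the direction of the gene, and capitals mark CCAAT on either strand, the only 1 of 4 motifs searched that was found in the 3 windows.
Adipoq: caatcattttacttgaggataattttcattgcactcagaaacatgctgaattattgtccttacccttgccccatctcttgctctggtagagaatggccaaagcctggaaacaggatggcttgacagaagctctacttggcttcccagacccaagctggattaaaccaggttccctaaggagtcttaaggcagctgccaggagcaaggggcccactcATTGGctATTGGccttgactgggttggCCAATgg
Cidec: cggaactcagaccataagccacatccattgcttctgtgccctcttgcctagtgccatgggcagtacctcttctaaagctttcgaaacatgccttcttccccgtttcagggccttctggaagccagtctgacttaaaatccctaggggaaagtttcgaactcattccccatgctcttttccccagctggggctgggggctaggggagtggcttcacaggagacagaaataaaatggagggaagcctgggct
Plin4: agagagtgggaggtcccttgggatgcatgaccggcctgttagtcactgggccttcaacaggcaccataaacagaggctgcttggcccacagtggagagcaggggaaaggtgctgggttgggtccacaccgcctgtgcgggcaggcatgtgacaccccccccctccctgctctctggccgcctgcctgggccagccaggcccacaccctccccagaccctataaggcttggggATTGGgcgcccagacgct
The windows were searched on both strands for CCAAT, for TATAAA, for AGGTCA, a half-site of nuclear receptors, and for 2 copies of that half-site in direct repeat with 1 base between them. Adipoq held 3 CCAAT matches, beginning 34, 27 and 7 bases before the start, and Plin4 held 1, beginning 18 bases before it. Neither start of Cidec, nor the Cfd, Plin1 or Retn window, held any of the 4 motifs. Among 32851 promoters of the same length, 33.8% held CCAAT, 12.4% TATAAA, 14.0% AGGTCA and 0.0335% the repeat. These matches describe letters in a window, and no binding was measured.

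Adipoq was seen in the wild-type duodenal wall and hardly elsewhere. The values are log2 probe brightness after the authors' quantile normalization, on which background probes pile up at 7.7 and a probe above 7.78 counts as brighter than background. Adipoq read 7.76, 7.72 and 8.17 on the small-intestinal mutant arrays, against 9.39, 8.32 and 9.27 on the small-intestinal wild-type arrays. In colon it read 7.79, 7.71 and 7.77 on mutant arrays and 7.7, 7.66 and 7.76 on wild-type arrays. It was thus above the limit on 1 of 3 small-intestinal mutant arrays, all 3 small-intestinal wild-type arrays, 1 colon mutant array (at 7.79), and none of the colon wild-type arrays. Within the wild-type duodenum the second array stood well below the other two, and the third mutant array approached it from below without overlap.

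Cidec, the droplet-fusion factor, was present on all 12 arrays and split by tissue instead. It read 8.99, 9.18 and 9.35 on small-intestinal mutant arrays and 9.06, 9.19 and 9.09 on small-intestinal wild-type arrays. In colon it read 7.94, 7.92 and 7.94 on mutant arrays and 7.81, 7.93 and 7.97 on wild-type arrays. The genotypes overlapped in both tissues, and every duodenal array was above every colon array. Over the 6 small-intestinal arrays Adipoq and Cidec had a Pearson r of -0.23, and over all 12 arrays, which include the tissue difference, 0.57. These are descriptions over few arrays that share a normalization.

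The other 4 probes gave only bounds. Fabp4 lay between 7.65 and 7.75 on the 12 arrays, the 2 Plin1 probes between 7.68 and 7.78, and Retn between 7.66 and 7.75, with no array of any group above the limit. A dim probe need not mean a missing transcript on these arrays. Fabp1 and Fabp2, major fatty acid-binding proteins of the absorptive enterocyte, were also at background on every array, at 7.64 to 7.73 and 7.64 to 7.72. Both tissues hold epithelium, but the duodenal villi had been sheared off and the colon was distal. These values therefore do not settle whether the probes miss a transcript that is present. Of the 7 listed genes of the fatty acid-binding protein family, 2 were tested, Fabp3 and Fabp6, the ileal bile acid-binding protein. Fabp6 averaged 7.86 ± 0.03 in small-intestinal wild type and 8.68 ± 0.03 in colon wild type (SD, n = 3 each), a difference of -0.82 ± 0.25 (SE, limma adjusted p = 0.0214). Of the 4 resistin-family genes, Retn was the only one left untested for dim signal. Retnlb, the goblet cell member, spanned 7.77 to 14.57 over the arrays.

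**Figure D1:**
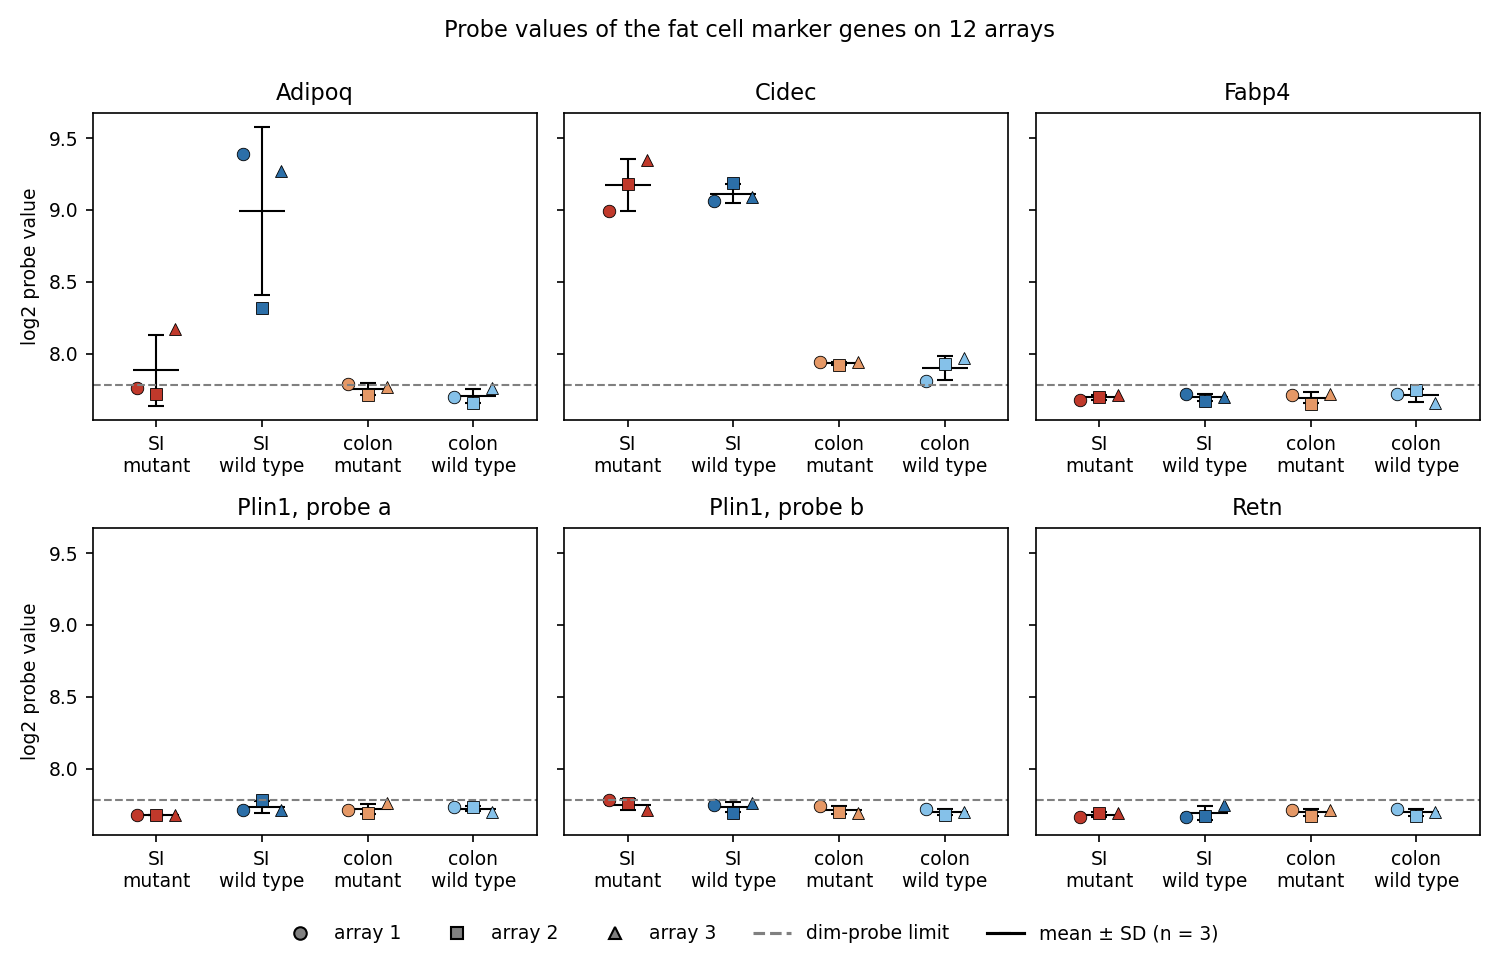
Log2 value (vertical axis) of each member probe on the 12 arrays, by group (SI, small intestine), with bars for the mean and SD of 3 arrays and a dashed line at the dim-probe limit of 7.78. Adipoq stands clear of the limit on the 3 SI wild-type arrays and on SI mutant array 3, Cidec on all SI arrays, and the 4 probes of Fabp4, Plin1 and Retn on none.

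The comparison of mutant with wild-type duodenum asks whether loss of Cftr in the epithelium goes with a different fat cell signal in the wall. Adipoq averaged 7.88 ± 0.25 in small-intestinal mutant and 9.0 ± 0.59 in small-intestinal wild type (SD, n = 3 each). The difference was -1.11 ± 0.23 on the log2 scale (SE, 95% interval -1.64 to -0.59, limma unadjusted p = 0.000744, adjusted p = 0.0816), which did not pass the threshold of 0.05. Adipoq was among the tested genes only because of its 3 small-intestinal wild-type arrays, since 2 of the other 9 were above the limit, and without the filter the limma adjusted p was 0.147. All 3 mutant arrays lay below all 3 wild-type arrays, as 6.77% of all features did. Cidec averaged 9.17 ± 0.18 in small-intestinal mutant and 9.11 ± 0.06 in small-intestinal wild type, a difference of 0.06 ± 0.08 (limma adjusted p = 0.998). So 0 of the 2 tested members were called, in a contrast where 108 of 15909 features were called, 0.679% of them, and 1299 (8.17%) had an unadjusted p under 0.05.

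The Adipoq test depended on which arrays set the spread. The joint fit takes its spread from all 4 groups, and in colon Adipoq sits at background and hardly varies. With the 6 small-intestinal arrays fitted alone, the difference of -1.11 had a limma adjusted p = 0.406. It passed with a variance prior that follows brightness (adjusted p = 0.0259), with array weights (-1.23, adjusted p = 0.0278) and without small-intestinal wild-type array 2 (-1.45, adjusted p = 0.00102). Without wild-type array 1 or 3 the difference was -0.91 or -0.97, with limma adjusted p = 0.295 and 0.336. Wild-type arrays 1 and 3, which carry most of the Adipoq signal, were also the closest pair of the small-intestinal arrays, with an SD of their differences of 0.0774 against 0.113 to 0.149 for the other pairs. With these 2 averaged and counted once, the Adipoq difference was -0.94 (limma adjusted p = 0.339). The sign was negative in all 22 alternative fits.

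**Figure D2:**
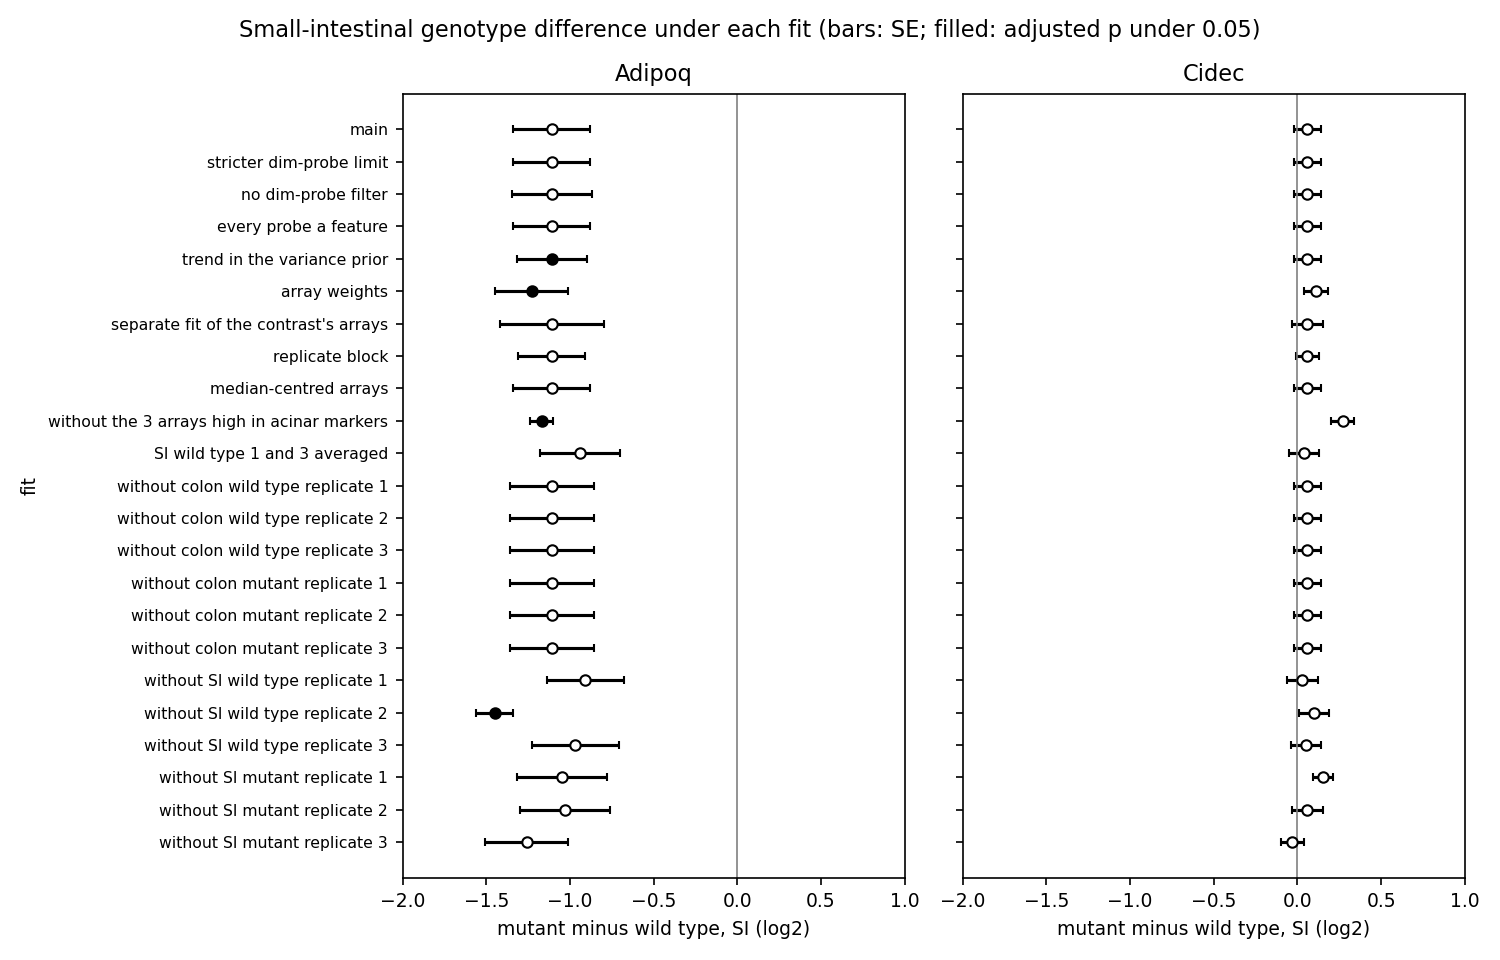
Small-intestinal difference, mutant minus wild type, on the log2 scale (horizontal axis) for Adipoq and Cidec under the main fit and each alternative (rows), with bars for the SE and filled points where the limma adjusted p is under 0.05. Adipoq stays between -1.45 and -0.91 and is filled in 4 alternatives, and Cidec stays between -0.03 and 0.27 and is never filled.

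In colon epithelium neither member differed by genotype beyond the spread. Adipoq averaged 7.76 ± 0.04 in colon mutant and 7.71 ± 0.05 in colon wild type (SD, n = 3 each), a difference of 0.05 ± 0.23 (SE, limma adjusted p = 1.0) between values at background. Cidec averaged 7.93 ± 0.01 in colon mutant and 7.90 ± 0.09 in colon wild type, a difference of 0.03 ± 0.08 (limma adjusted p = 1.0). No feature at all was called in that contrast by limma, 0.0% of 15909, with 812 (5.1%) at an unadjusted p under 0.05. The difference between the tissues in the genotype effect was -1.16 ± 0.33 for Adipoq (SE, limma adjusted p = 0.52) and 0.03 ± 0.11 for Cidec (limma adjusted p = 0.989), and no feature passed there either (0.0%, with 944 or 5.93% at an unadjusted p under 0.05). For Adipoq that difference passed without small-intestinal wild-type array 2 (-1.5, limma adjusted p = 0.01), and its adjusted p ranged from 0.000298 to 0.933 over the alternatives.

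Between tissues both tested members were higher in the duodenal wall of wild-type mice. Adipoq averaged 9.0 ± 0.59 in small-intestinal wild type and 7.71 ± 0.05 in colon wild type, and was at least 2.32-fold higher (limma adjusted p = 0.00118), a bound because it was at background on every colon wild-type array. Adipoq passed the dim-probe filter only through the small-intestinal wild-type group, so that it differs there was partly set by the filter, and without any filter the limma adjusted p was 0.00247. Cidec was higher by 1.21 ± 0.08 on the log2 scale, 2.31-fold (limma adjusted p = 6.01e-07), with its colon values of both genotypes close to background. In this contrast 17.9% of all features were called higher, and the filter lets no weight be put on the count of members. In mutant mice Cidec was again higher in small intestine, by 1.24 ± 0.08 or 2.37-fold (limma adjusted p = 5.65e-07), in a contrast with 17.4% of features called higher. Adipoq in mutants averaged 7.88 ± 0.25 in small intestine and 7.76 ± 0.04 in colon, a difference of 0.13 ± 0.23 (limma adjusted p = 0.724) that was -0.02 without small-intestinal mutant array 3 and 0.41 (limma adjusted p = 0.00217) without small-intestinal mutant arrays 1 and 2 and wild-type array 2. The duodenal samples are described as wall without villi and the colon samples as separated epithelium, although 1 field speaks of whole colon. Tissue and preparation therefore cannot be told apart.

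The relatives of Cidec and Plin1 show how differently the droplet proteins behaved. Of the 8 perilipin and CIDE genes listed, all but Plin1 were tested. Cideb, the CIDE protein of liver and enterocytes that acts in lipoprotein lipidation, averaged 11.96 ± 0.04 in small-intestinal wild type and 10.19 ± 0.08 in colon wild type, a difference of 1.78 ± 0.06 (SE, limma adjusted p = 3.79e-09). Plin3, a perilipin of small droplets in many cell types, was higher in small-intestinal than colon wild type by 1.23 ± 0.08 (limma adjusted p = 5.28e-07). Plin2, the widely expressed droplet coat protein, ranged only from 8.43 to 8.83 over all 12 arrays. In small intestine the genotype difference was -0.02 ± 0.06 for Cideb, 0.06 ± 0.08 for Plin3 and -0.04 ± 0.09 for Plin2, each with a limma adjusted p = 0.998. Cidea, a CIDE protein of brown fat, stayed between 7.72 and 7.80 and Plin5, of oxidative tissues, between 7.72 and 7.92.

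Plin4, a perilipin abundant in white fat, was the only tested gene of these families called by genotype in small intestine. It read 7.98, 8.03 and 8.20 on small-intestinal mutant arrays, against 8.74, 8.33 and 8.60 on small-intestinal wild-type arrays, with no overlap. It fell by 0.49 on the log2 scale in small-intestinal mutant (-0.49 ± 0.09, SE, limma adjusted p = 0.0468, and adjusted p = 0.33 with the small-intestinal arrays fitted alone). On the colon arrays it was at background throughout, at 7.66 to 7.72.

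A wider set of 62 other fat cell genes in 4 lists (lipid droplet and lipolysis, triglyceride synthesis and uptake, transcription factors, secreted and surface proteins) put the members in context. On the array were 58 of them and 48 were tested. In small intestine 2 fell in mutant, Plin4 and Aoc3, and none rose, beside 0.509% of all features called lower and 0.17% called higher. The difference was negative for 39 of the 48 and the median was -0.04, against 7939 of 15909 features and a median of 0.00 over all. The lists were chosen with earlier results of these data known, and their genes were read on the same arrays. The counts of signs and of arrays without overlap are therefore descriptions, not independent tests. The 48 include genes at background on most small-intestinal arrays, such as Acvr1c and Trarg1, whose signs carry little weight. In 14 of the 48 all mutant arrays lay below all wild-type arrays and in 2 above, beside 6.77% and 6.73% of all features. Car3 and Thrsp, both among the 14, passed the dim-probe filter only through the small-intestinal wild-type group, as did Hp. That they are low in mutant was thus partly set by the filter. Aoc3, the semicarbazide-sensitive amine oxidase of fat cells, smooth muscle and vessel walls, read 9.14, 9.11 and 9.27 on small-intestinal mutant arrays, against 9.68, 9.45 and 9.56 on small-intestinal wild-type arrays, a fall of 0.39 (-0.39 ± 0.06, SE, limma adjusted p = 0.0221, and adjusted p = 0.242 with the small-intestinal arrays fitted alone). A second Aoc3 probe stayed between 7.73 and 7.83, near background, and did not show the fall. On that probe small-intestinal mutant arrays read 7.82, 7.77 and 7.82, slightly above the wild-type 7.76, 7.76 and 7.73. The count of 2 was 0 in the separate fit, without small-intestinal wild-type array 1, without array 3, without small-intestinal mutant array 1, and with wild-type arrays 1 and 3 averaged. It was 1, Aoc3, with no dim-probe filter, without small-intestinal mutant array 2 and without any 1 of the 6 colon arrays, where the Plin4 adjusted p ran from 0.0763 to 0.09. It was 3 without small-intestinal mutant array 3, 4 with a variance trend or with array weights, and 8 without wild-type array 2.

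By role, all 13 tested secreted and surface genes had a negative difference in small intestine, with a median of -0.13, and Aoc3 alone passed. Acvr1c, Trarg1, Ptger3 and Apoc1 were above the dim-probe limit on 0 small-intestinal mutant arrays, and Adig, Lep and Hp on 1. On small-intestinal wild-type arrays Acvr1c and Trarg1 were above it on 1, and Ptger3, Apoc1, Adig and Lep on 2. The signs in this list therefore do not weigh alike. That list holds genes of vessel walls too (Aoc3, Cav1, Cavin1 and Cavin2), and of the 14 endothelial markers 11 were negative, with a median of -0.09. Of 11 lipid droplet and lipolysis genes 10 were negative, with a median of -0.04, and Plin4 alone passed. The lists were not tested against each other. None of 17 genes of triglyceride synthesis and uptake, none of 7 transcription factors and none of 7 brown fat genes passed by limma in that contrast. The triglyceride list did not lean 1 way, with 10 negative, 7 positive and a median of -0.01. Agpat2 (0.30 ± 0.11), Elovl6 (0.28 ± 0.15) and Aqp7 (0.25 ± 0.12, SE) were higher in mutant there. Of the transcription factors 6 were negative and 1 positive, and of the brown fat genes 5 and 2. Pparg, the receptor that directs fat cell differentiation, averaged 9.09 ± 0.08 in small-intestinal mutant and 9.11 ± 0.05 in small-intestinal wild type, and 10.92 ± 0.07 in colon mutant and 10.97 ± 0.09 in colon wild type (SD, n = 3 each). It was thus lower in the duodenal wall than in colon epithelium of wild-type mice, by a difference of -1.86 ± 0.06 (SE, limma adjusted p = 2.37e-09). Dgat1, the last enzyme of triglyceride synthesis, and Mlxipl, the glucose-responsive factor ChREBP, were higher in small-intestinal than colon wild type by 2.79 ± 0.09 and 1.59 ± 0.06 (limma adjusted p = 3.54e-09 and 8.94e-09). Between wild-type tissues 22 of the 48 were higher in small intestine and 8 lower, with a median of 0.09 against -0.02 over all features, of which 17.9% were higher and 23.5% lower. Between mutant tissues 19 were higher and 10 lower, with a median of 0.00 against -0.02 over all features, of which 17.4% were higher and 22.2% lower. No gene of these lists was called by genotype in colon.

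Several fat cell genes that did not pass by genotype were, like Adipoq, highest on small-intestinal wild-type arrays 1 and 3. Car3, a carbonic anhydrase very abundant in fat cells, read 7.7, 7.74 and 8.10 on small-intestinal mutant arrays, against 9.25, 8.15 and 9.14 on small-intestinal wild-type arrays (difference -1.0 ± 0.23, SE, limma adjusted p = 0.13). Scd1, the stearoyl-CoA desaturase, read 7.91, 8.25 and 8.03 in small-intestinal mutant, against 10.18, 8.56 and 9.84 in small-intestinal wild type (-1.46 ± 0.33, limma adjusted p = 0.115). In both genes these 2 arrays were far above every other small-intestinal array. Lpl, the lipase that releases fatty acids from circulating lipoproteins, read 8.54, 8.09 and 8.68 in small-intestinal mutant, against 10.23, 8.72 and 9.92 in small-intestinal wild type (-1.18 ± 0.33, limma adjusted p = 0.23). A second Lpl probe stayed between 7.68 and 7.78. Scd1 and Lpl are not specific to fat, and the colon arrays of both genotypes held 8.52 to 8.92 of Scd1 and 9.28 to 9.93 of Lpl. Lpl, haptoglobin (Hp), Thrsp and leptin (Lep) were picked out after their values were seen, and Car3 and Scd1 for their small p in this contrast. The shared pattern was thus partly set by the choice of genes. Leptin itself, the fat cell hormone, read 7.76, 7.75 and 7.80 in small-intestinal mutant, against 8.0, 7.78 and 7.93 in small-intestinal wild type (-0.13 ± 0.05, limma adjusted p = 0.429).

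Set on a linear scale, the brightness above background can be compared as a percent of that on small-intestinal wild-type array 1. Adipoq had 17.0% on small-intestinal mutant array 3, against 23.8% and 88.4% on wild-type arrays 2 and 3. Car3 had 16.7% on that mutant array, against 19.3% and 88.9% on those wild-type arrays, and Hp had 21.4%, against 15.5% and 79.3%. On mutant arrays 1 and 2 all 3 of these genes were below the dim-probe limit, so no share or order is given there. Plin4 kept more of its signal, with 20.2%, 24.2% and 39.3% on the mutant arrays, against 51.6% and 81.9% on the wild-type arrays. Cidec had 92.3%, 114.0% and 135.5% on the mutant arrays, against 114.7% and 103.5% on the wild-type arrays, and followed none of them.

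**Figure D3:**
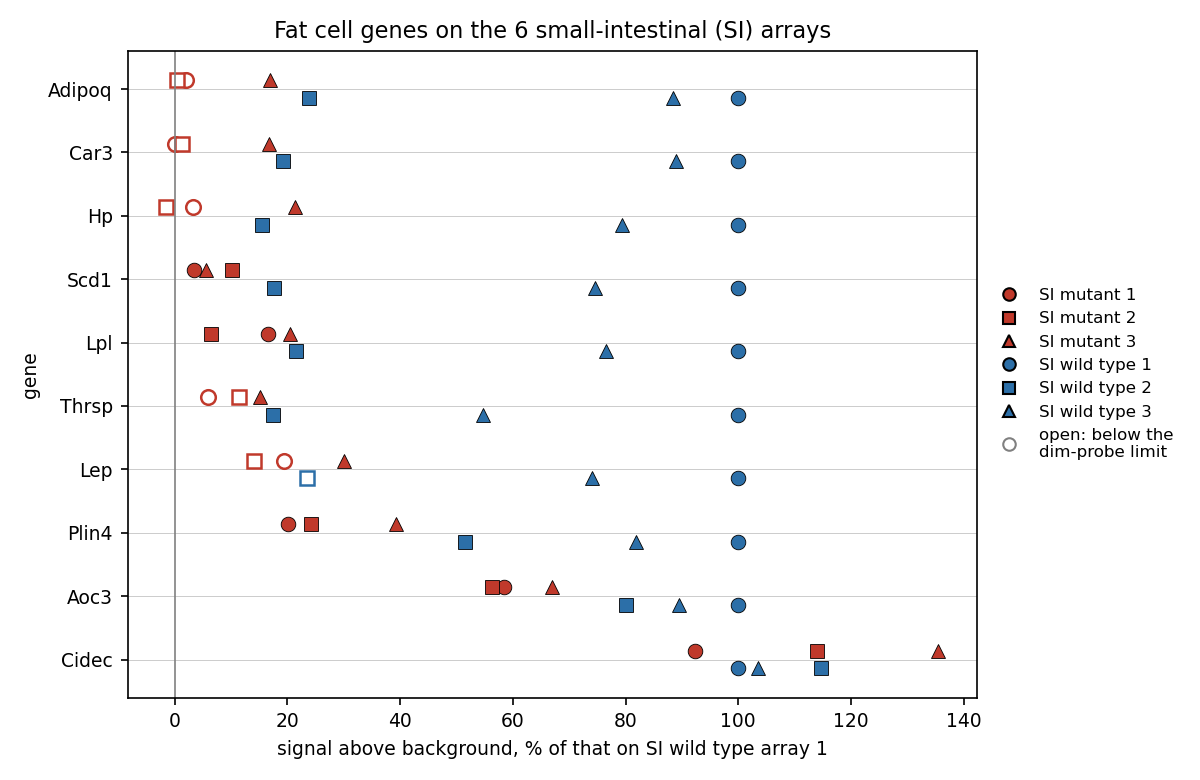
Linear signal above background (horizontal axis, percent of the signal on SI wild-type array 1) for 10 genes (rows) on the 3 SI mutant and 3 SI wild-type arrays, with open symbols for values below the dim-probe limit, which have no order. From Adipoq to Aoc3 the SI wild-type arrays 1 and 3 lie to the right of every mutant array, while Cidec lies between 92.3% and 135.5% on all 6. Apart from the members, the genes were chosen by small p in this contrast or after their values were seen. That pattern was therefore partly set by the choice, and listed genes without it, such as Agpat2 and Angptl4, are not shown.

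By Pearson r over the 6 small-intestinal arrays, Car3 was the gene most like Adipoq among 12130 other named genes (r = 0.998). Both passed the dim-probe filter only through the small-intestinal wild-type group, which favours such a likeness. Next came Galnt15 (0.995), Apoc1 (0.994), Glb1l2 (0.993), the transferrin gene Trf (0.992) and the cytochrome P450 gene Cyp2e1 (0.990), with Plin4 at 0.987. Of the 70 genes with r of 0.95 or more, 8 were among the fat cell lists, which hold 48 of the 12130 genes compared. Hp and Thrsp of these lists also passed the filter only through the small-intestinal wild-type group. The lists were chosen with earlier results of these data known, so no weight is put on this count. For Cidec the leading genes were Smo (0.992), Slc16a5 (0.986) and Fkbp5 (0.984), and of 50 genes with r of 0.95 or more none was in the fat cell lists. These single-gene profiles were chosen after the values were seen. The mean z score of the 2 members was most like Lsm3 (0.990), Nlrp6 (0.981) and Flvcr1 (0.981) over the 6 small-intestinal arrays, with 0 of 32 genes at 0.95 or more in the fat cell lists. Over all 12 arrays it was most like Ifi27l2a (0.991), Plin4 (0.990) and Ifit3 (0.987). All of these correlations rest on 6 or 12 arrays that share a normalization.

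Adiponectin acts on Adipor1 and Adipor2, and adipsin feeds the alternative complement pathway through factor B (Cfb) and properdin (Cfp). The receptors were bright on all arrays, Adipor1 from 10.88 to 11.49 and Adipor2 from 11.14 to 12.30. Their small-intestinal genotype differences were 0.11 ± 0.08 and 0.08 ± 0.13 (SE, limma adjusted p = 0.884 and 0.998). In wild-type mice Adipor1 was lower in small intestine than colon by a difference of -0.53 ± 0.08 (limma adjusted p = 0.000327) and Adipor2 higher by 0.68 ± 0.13 (limma adjusted p = 0.00156). Cdh13, the T-cadherin that binds adiponectin, reached at most 7.85 and was not tested. Cfp was higher in small-intestinal than colon wild type by 1.12 ± 0.06 (limma adjusted p = 1.15e-07) and Cfb by 0.38 ± 0.09 (limma adjusted p = 0.00466). Of the 5 tested genes of this set, 0 were called by genotype in small intestine, where 0.679% of all features were.

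Markers of other cells also varied among the small-intestinal arrays, and within each genotype acinar markers were high where Adipoq was low. Pancreatic acinar markers, digestive enzymes of the pancreas that lies against the duodenum, averaged 9.87, 11.30 and 8.18 over 10 genes on small-intestinal mutant arrays, against 8.32, 11.49 and 8.32 on small-intestinal wild-type arrays. The arrays high in acinar markers were thus mutant 1, mutant 2 and wild-type 2, which had the lowest Adipoq of their genotype. Among these 3, Adipoq was 7.76 and 7.72 on the mutant arrays and 8.32 on the wild-type array. Among the other 3, it was 8.17 on the mutant array and 9.39 and 9.27 on the wild-type arrays. Without the 3 acinar-high arrays the Adipoq difference was -1.17 ± 0.07 (SE, limma adjusted p = 9.96e-05), in a fit where 319 features were called (2.01%, 1.55% lower) the lone mutant array is assumed to vary like the other groups, and the 2 wild-type arrays are the closest pair. Of the other fat cell genes, that fit picked out Aoc3, Car3, Hp, Lpl, Plin4 and Scd1 as lower on the lone mutant array. Car3 and Hp, like Adipoq, passed the dim-probe filter only through the small-intestinal wild-type group, so no weight is put on how many were picked. The lipase inhibitor Angptl4 went the other way. It read 8.39, 8.21 and 9.87 on small-intestinal mutant arrays, against 9.21, 8.85 and 9.08 on small-intestinal wild-type arrays.

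Among the small-intestinal arrays, endothelial and blood markers were also highest on wild-type arrays 1 and 3. Muscle and fibroblast markers were level on mutant array 1 (10.57 and 8.77) and wild-type array 1 (10.56 and 8.76). Macrophage markers averaged 8.83, 8.68 and 8.66 on small-intestinal mutant arrays, against 8.85, 8.71 and 8.83 on small-intestinal wild-type arrays. The 14 endothelial markers averaged 8.32, 8.34 and 8.35 on small-intestinal mutant arrays, against 8.47, 8.34 and 8.48 on small-intestinal wild-type arrays. The 2 tested erythrocyte genes, Hba-a1 and Alas2, averaged 9.25, 9.04 and 8.86 in small-intestinal mutant, against 9.80, 8.78 and 9.74 in small-intestinal wild type. On colon arrays these 2 genes averaged 9.26, 10.66 and 9.67 in mutant, against 9.17, 9.41 and 9.75 in wild type, so colon mutant array 2 was the highest of all 12. Smooth muscle markers lay between 10.43 and 10.57 on small-intestinal mutant arrays and 10.50 and 10.56 on small-intestinal wild-type arrays, and fibroblast markers between 8.68 and 8.77 and between 8.70 and 8.76 on the same groups. The part of acinar, endothelial and blood RNA in the Adipoq difference was not tested. In these bulk samples fewer fat cells and less Adipoq RNA per cell cannot be told apart.

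**Figure D4:**
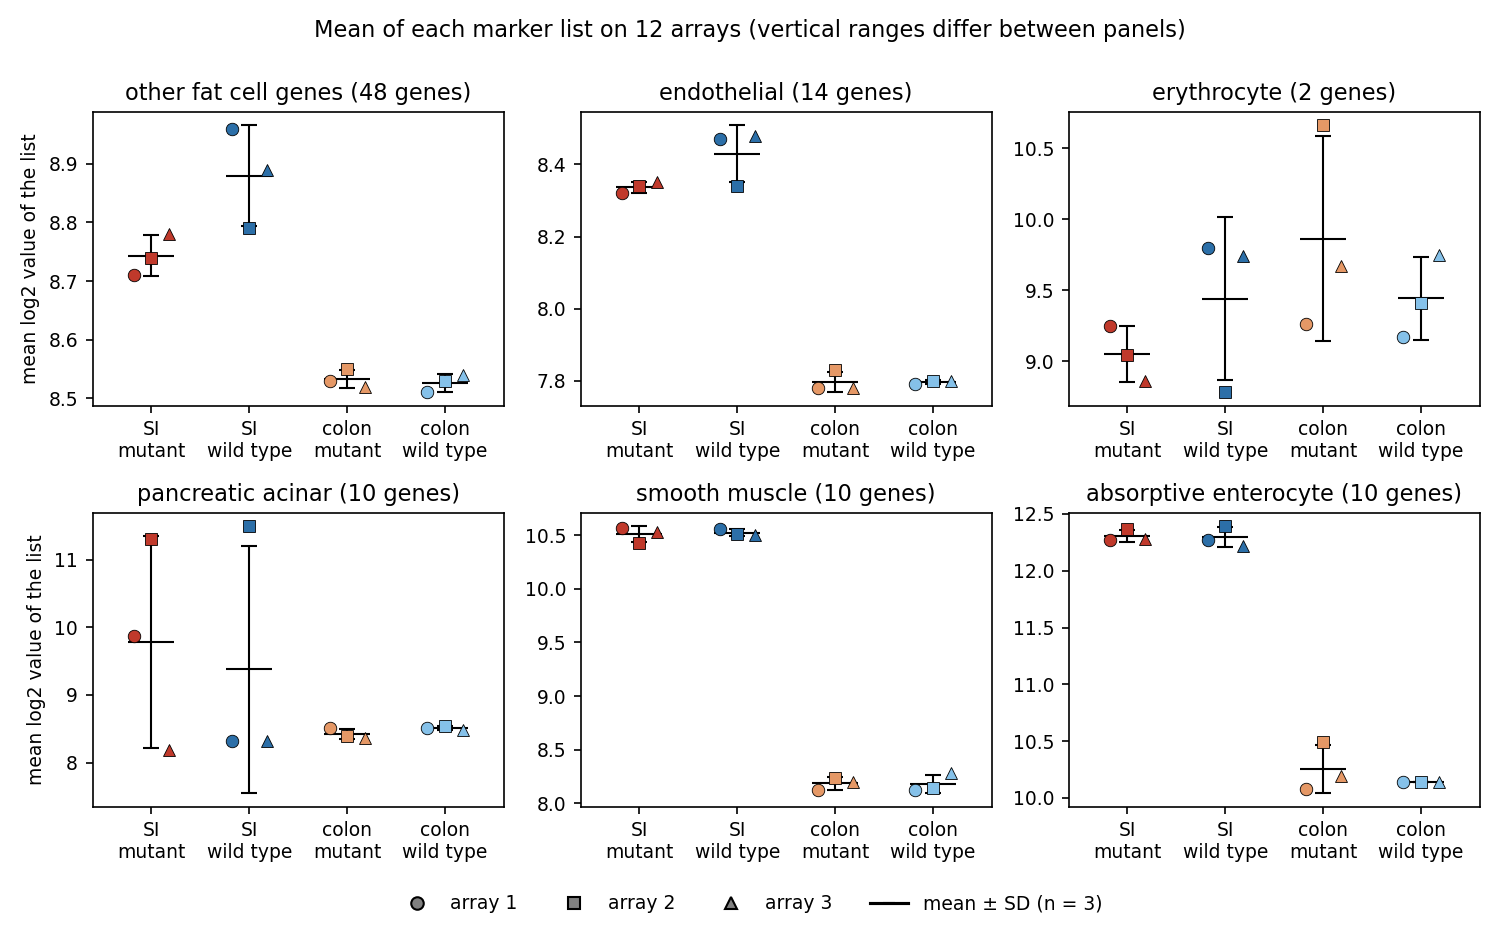
Mean log2 value (vertical axis, range differs by panel) of 6 marker lists on each of the 12 arrays by group, with bars for the mean and SD of 3 arrays. On the SI arrays the endothelial and erythrocyte lists are highest on wild-type 1 and 3, the acinar list is highest on mutant 2 and wild-type 2, and the smooth muscle list spans 10.43 to 10.57.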

How the data were processed

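Values came from 12 Illumina mouse BeadChips, 3 in each of 4 groups. The authors deposited log2 values, quantile normalized. Limma is the only tool in the submitters' processing notes, without a version. No source used here states how background was treated. A second table with 24 columns whose names match no labels was not used. The members and lists were chosen with earlier results of these data known.

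Values piled up at a mode of 7.7, and the values under the mode, mirrored, gave an SD of 0.0278. Probes more than 3 SD above the mode (7.78) on at least 3 arrays were kept, and the probe with the highest mean stood for its gene, giving 15909 features. Differences of dim probes are understated on this scale. Of the 45281 probes, 34885 had 1 gene symbol in the platform annotation, 18 several and 10378 none, and 34807 matched RefSeq genes of GRCm38.p6 by Entrez number. Promoter sequences are RefSeq's, of that build. Matched promoters were found for Adipoq, Cfd, Cidec, Plin1, Retn and Plin4.

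Limma 3.58.1 (R 4.3.3) estimated 1 mean for each of the 4 groups from the 12 arrays (8 residual degrees of freedom, and 2.152 from the variance prior). P-values were two-sided and Benjamini-Hochberg adjusted over all features, with a threshold of 0.05. The number of arrays limits the precision, and an exact permutation test of 3 against 3 cannot go below 0.1. Intervals are 95% intervals of the fit. Alternatives changed the dim-probe limit (7.87 or none), probe choice, variance prior, array weights, arrays fitted, centring, the replicate block and each array in turn. Leaving out the acinar-high arrays and averaging wild-type 1 and 3 were chosen after seeing the data. Genes named were all 6 members, the 4 other fat cell genes with the smallest p in the small-intestinal genotype contrast and in the wild-type tissue contrast, and the genes most like the mean z score of the tested members by Pearson r. Family, receptor and complement genes came from listed sets, and Lpl, Hp, Thrsp, Lep, Angptl4 and the single-gene likeness profiles were chosen after their values were seen. Correlations of the deviations of same-numbered arrays were between -0.208 and 0.373, and between tissues of the same genotype -0.042 to 0.162. Arrays of unlike number were not compared, so these values do not settle whether the numbers pair the arrays.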

Additional observations from a re-analysis of the deposited data

How the results depend on the processing

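The small-intestinal Adipoq difference kept its sign in all 22 alternatives and passed in 4, with adjusted p from 9.96e-05 to 0.406. Cidec passed in none by genotype, and both members passed in all 22 between wild-type tissues. Features called by genotype in small intestine numbered 108, against 179 with array weights, 57 with a replicate block, 3 in a separate fit, 319 without the acinar-high arrays, 0 with wild-type 1 and 3 averaged, and 0 to 149 with 1 array left out. Members called there numbered 0, against 1 with a variance trend, 1 with array weights, 1 without the acinar-high arrays, and 0 to 1 with 1 array left out. With the replicate block the Adipoq difference was -1.11 (limma adjusted p = 0.0793) no member was called, and 1 other fat cell gene passed, Aoc3 (against 2). Whether the numbers pair the arrays is not settled. In colon, leaving out 1 array gave 0 to 31 features, the 31 without mutant array 1. For the difference between tissues in the genotype effect, 2 features passed with a variance trend, 213 without the acinar-high arrays and 0 to 36 with 1 array left out, and members called there were 1 without the acinar-high arrays and 0 to 1 with 1 array left out. Between mutant tissues 2 members passed without the acinar-high arrays, against 1, with Adipoq at 0.41. With 1 array left out, the Cidec genotype difference ran from -0.03 to 0.15 in small intestine, -0.02 to 0.06 in colon and -0.05 to 0.12 between the 2, and Adipoq between mutant tissues from -0.02 to 0.21. Signs turned for values near 0: Cidec in small intestine (-0.03) and in the difference between tissues (-0.05) and Adipoq between mutant tissues (-0.02), all without small-intestinal mutant array 3, Cidec in colon without wild-type array 1 (-0.02), and Cidec in the difference between tissues without colon wild-type array 3 (-0.001). The causes were not tested. Signal over background is the limit for Fabp4, Plin1 and Retn.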
